A study of Mus musculus with 16 samples.

Results

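Histamine and noradrenaline reach the dorsal raphe nucleus (DRN), where most serotonin neurons that project to the forebrain lie, and act there through G protein-coupled receptors. The genes described here are 9 receptors of these 2 transmitters, chosen by symbol: the histamine receptors Hrh1, Hrh2 and Hrh3, the alpha1-adrenergic receptors Adra1a, Adra1b and Adra1d, the alpha2-adrenergic receptors Adra2a and Adra2c, and the beta1-adrenergic receptor Adrb1. Of the 9 symbols, 8 matched 1 row each among the 14504 genes of the expression table, and Adra1d matched none and was not analysed here.

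PolyA RNA from the DRN of adult male C57BL/6 mice was sequenced in 16 libraries, each from 1 animal, in 6 groups. Control mice were intact and housed individually (3 saline and 3 DEX libraries), and the other animals underwent chronic social defeat stress (CSDS) for 30 days. Stressed mice were classed by their behavior as passive coping strategy (PS, 2 saline and 3 DEX libraries) or active coping strategy (AS, 3 saline and 2 DEX libraries). Tissue was taken 6 h after an injection of saline or of 2 mg/kg dexamethasone (DEX), a synthetic agonist of the glucocorticoid receptor, and no group carried a transgene or deletion in its labels. The animals were male only, and the study removed some DEX libraries of stressed mice that were low in Tph2, so the DEX groups of PS and AS were selected on that gene. The paper counts more DRN samples after that removal than the 16 used here. The control and saline groups therefore also lack animals, for a reason not given in the sources used here. A library is called by its group and title number, for example PS_sal_62.

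The receptors fall into 3 coupling classes. H1 (Hrh1) and the alpha1 receptors couple mainly to Gq, which activates phospholipase C and releases calcium from stores, and both are known to depolarize serotonin neurons of the DRN. H3 (Hrh3) and the alpha2 receptors couple to Gi/o, lower cAMP, open potassium channels and restrain transmitter release, H3 as the autoreceptor and heteroreceptor of histamine fibers and alpha2A as the main autoreceptor of noradrenergic neurons. H2 (Hrh2) and beta1 (Adrb1) couple to Gs and raise cAMP.

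The libraries held 38207157 to 62447298 reads in the listed genes. Values are normalized counts (the count of a gene after division by the size factor of its library), and no receptor had fewer than 167 reads in any library. DEX acted in all labeled animals: Fkbp5, a chaperone of the glucocorticoid receptor and a standard target of DEX, lay at 1241 to 1536 in saline and at 5578 to 6958 in DEX libraries. Tph2, the enzyme of serotonin synthesis that defines the tissue, lay at 91764 to 182191 in all 16, and all 8 markers of serotonin neurons were listed. Among markers of noradrenergic neurons, Th, which dopamine neurons share, matched a row, and Dbh and Slc6a2 matched none. Hdc, the enzyme of histamine synthesis, was listed at 84.7 to 706.

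The DNA around the start sites of Hrh1 and Adra2a is shown first, since the glucocorticoid receptor binds DNA at paired copies of the hexamer AGAACA. These 2 receptors passed the test of the DEX effect averaged over controls, PS and AS. In the main analysis Adra2a passed only there, and not in 9 of 16 fits that left out 1 library. RefSeq (GRCm38.p6) gave 12 promoter windows of 300 bases (250 before and 50 after a start) for 7 of the 8 genes, and none was matched for Adra1a. Hrh1 (ENSMUSG00000053004.9, protein coding, plus strand, GRCm38 chr6:114397936-114483296) has 4 such windows, of which 2 overlap. Of these, 3 are printed with the single window of Adra2a (ENSMUSG00000033717.6, protein coding, plus strand, GRCm38 chr19:54044151-54048982), in lower case, 5′ to 3′ on the plus strand, with matches to AGAACA on either strand in capitals (a match on the minus strand reads TGTTCT):
Hrh1, window 1, chr6:114397686-114397985: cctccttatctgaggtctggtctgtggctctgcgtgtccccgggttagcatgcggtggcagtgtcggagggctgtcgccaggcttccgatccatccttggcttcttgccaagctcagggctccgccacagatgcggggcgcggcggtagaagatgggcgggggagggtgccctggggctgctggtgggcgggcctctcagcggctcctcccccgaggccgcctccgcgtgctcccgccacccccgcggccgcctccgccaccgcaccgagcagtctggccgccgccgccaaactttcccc
Hrh1, window 3, chr6:114403416-114403715: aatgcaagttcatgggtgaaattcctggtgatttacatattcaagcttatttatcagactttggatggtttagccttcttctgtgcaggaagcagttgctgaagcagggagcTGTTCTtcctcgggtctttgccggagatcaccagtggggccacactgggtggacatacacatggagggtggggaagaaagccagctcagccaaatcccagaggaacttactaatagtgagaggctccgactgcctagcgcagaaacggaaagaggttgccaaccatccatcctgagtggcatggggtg
Hrh1, window 4, chr6:114458272-114458571: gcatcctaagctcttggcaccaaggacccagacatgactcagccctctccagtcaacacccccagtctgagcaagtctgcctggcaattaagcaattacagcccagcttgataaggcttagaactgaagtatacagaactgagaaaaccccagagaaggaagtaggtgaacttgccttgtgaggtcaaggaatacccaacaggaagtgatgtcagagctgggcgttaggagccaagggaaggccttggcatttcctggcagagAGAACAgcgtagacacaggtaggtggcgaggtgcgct
Adra2a, chr19:54045009-54045308: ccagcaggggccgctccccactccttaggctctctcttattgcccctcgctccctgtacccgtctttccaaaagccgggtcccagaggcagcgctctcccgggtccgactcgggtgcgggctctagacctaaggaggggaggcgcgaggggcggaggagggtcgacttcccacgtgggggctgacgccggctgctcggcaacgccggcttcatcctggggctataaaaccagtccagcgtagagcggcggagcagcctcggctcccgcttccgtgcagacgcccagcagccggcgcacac

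Window 1 of Hrh1 and the Adra2a window are rich in G and C (71.7% and 68.7%), whereas windows 3 and 4 of Hrh1 are at 50.7% and 52.3%. The hexamer AGAACA begins at position -138 from the start in window 3, on the minus strand, and at position 13 after the start in window 4, on the plus strand. These 2 windows were the only ones of the 12 with the hexamer (16.7%), against 19.0% of 32817 mouse promoter windows of the same length. The full element, AGAACA followed by any 3 bases and then TGTTC, which contains the hexamer, was in 0 of the 12 windows and in 0.0488% of all windows. The cAMP response element TGACGTCA was in 0 of the 12 and in 1.79% of all. All 3 motifs were searched on both strands. A match is only a match of letters, and libraries of this kind do not tell which start site was used.

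The receptors differed widely in abundance. Per kilobase of exon (normalized counts divided by the length of the union of all annotated exons), Adra1b was the most abundant with 1533 ± 219 (SD, n = 16), followed by Hrh3 with 1211 ± 204. Both stood far above Hrh1 with 356 ± 89.0. Adra1b lay above Hrh3 in 16 of 16 libraries, although the ranges of both genes over the libraries overlapped, and Hrh3 lay above Hrh1 in 16 of 16 with no overlap. Among 14356 genes with a length, Adra1b and Hrh3 stood at the 90.6th and 87.6th percentile.

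Adra2a (198 ± 37.2 per kb) and Adra2c (196 ± 24.0 per kb) could not be ordered. Each was the higher of the pair in 8 of 16 libraries. The lowest 3 were Adra1a at 101.6 ± 35.7, Hrh2 at 87.6 ± 15.5 and Adrb1 at 72.3 ± 13.1 per kb. Adra1a lay above Hrh2 in 11 of 16 libraries and Hrh2 above Adrb1 in 12 of 16, so these neighbors overlapped as well.

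The order depended in part on the length used for a gene. With the longest transcript in place of the exon union, Adra1a moved to rank 4 with 207 ± 72.8 per kb and lay below Adra2c in 4 of 16 libraries, Adra2a and Adra2c moved to ranks 5 and 6, and the other 5 genes kept their rank. Adra1b then lay above Hrh3 in 14 of 16 libraries. Shares by coupling class were computed over the 8 genes with the exon union only, not with the longest transcript. The Gq-coupled receptors held 53.1% ± 2.97 (SD, n = 16) of the summed level per kb, the Gi/o-coupled receptors 42.6% ± 2.70 and the Gs-coupled receptors 4.27% ± 0.542. The Gq share was 52.0% ± 3.61 in the 8 saline and 54.2% ± 1.77 in the 8 DEX libraries. Its means after saline and DEX were 50.5% and 55.4% in controls, 51.2% and 54.3% in PS, and 54.02% and 52.1% in AS, where the saline libraries ranged from 50.5% to 60.7%, so the direction in AS was opposite.

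**Figure D1:**
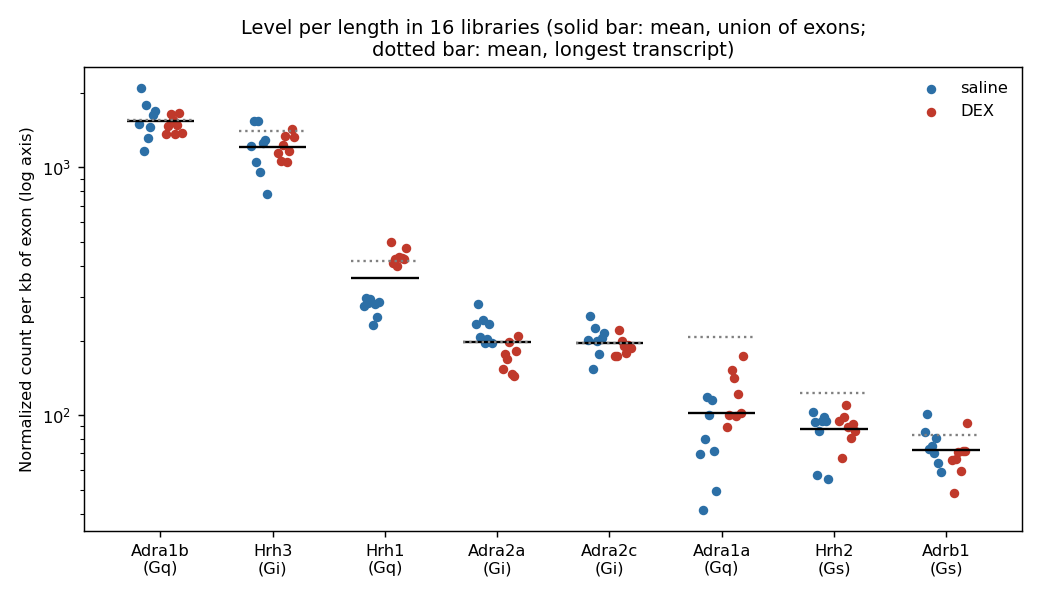
Level of the 8 receptor genes in 16 libraries as normalized counts per kilobase of exon, on a log axis, with saline libraries in blue and DEX libraries in red. Solid bars are means with the exon union as length and dotted bars means with the longest transcript, and the coupling class stands below each gene. Adra1b and Hrh3 lie above all the others, and Adra1a is the gene whose mean moves most with the length used, from 101.6 to 207.

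The first question was how the receptors responded to DEX. Of the 8 genes, Hrh1 rose after DEX in controls, in PS and in AS, and no other receptor passed the test within a phenotype. Averaged over the 3 phenotypes, Hrh1 rose by 0.69 and Adra2a fell by 0.36 on the log2 scale, and the other 6 genes did not pass. Called means an adjusted p under 0.1 (limma on log2(normalized count + 1), Benjamini-Hochberg over all 14504 genes), the threshold of the study.

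One called receptor of 8 compares with 1.26% of all genes called in controls, 0.703% in PS and 0.689% in AS. In the averaged effect 4.31% of all genes were called, 2.78% higher and 1.53% lower. At an unadjusted p under 0.05 the receptors numbered 4 in controls (Hrh1, Adra1a, Adra2a and Adrb1), 2 in PS (Hrh1 and Adra2a) and 2 in AS (Hrh1 and Adra1a). The corresponding shares of all genes were 12.1%, 4.69% and 9.36%. The median change of the 8 receptors in the average was -0.01, and that of all genes 0.00.

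Hrh1 encodes the H1 receptor, the target of sedating antihistamines. In controls it lay at 1224, 1319.6 and 1256 normalized counts after saline and at 2232, 1833 and 1900.1 after DEX. In PS mice the values were 1307 and 1027 after saline and 1779, 1925 and 1908 after DEX. In AS mice they were 1244, 1103 and 1275 after saline and 1903 and 2105 after DEX. Every DEX library stood above every saline library of any phenotype, with a gap from 1319.6 (con_sal_104) to 1779 (PS_dex_6). Hrh1 was the only one of the 8 receptors with this separation over all 16 libraries, which 1.88% of all genes showed.

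The Hrh1 means (± SD) after saline and DEX were 1267 ± 48.5 and 1988 ± 213 in controls (n = 3 and 3), 1167 ± 198 and 1871 ± 80.2 in PS (n = 2 and 3) and 1207 ± 91.5 and 2004 ± 142 in AS (n = 3 and 2). The log2 differences were 0.65 in controls (standard error, SE, 0.11, adjusted p = 0.0113), 0.69 in PS (SE 0.12, adjusted p = 0.0232) and 0.73 in AS (SE 0.12, adjusted p = 0.0153). These 3 estimates lay within 1 SE of each other. The difference of the DEX effect between PS and controls was 0.04 (95% interval -0.31 to 0.40) and that between AS and controls 0.09 (-0.27 to 0.44). The averaged effect had an SE of 0.07 and an adjusted p of 3.81e-05, which placed Hrh1 at rank 40 of 14504 genes by p.

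The call of the averaged effect held in all 28 alternatives that were run. The calls within a phenotype were less firm. Fits on only the groups compared gave larger adjusted p-values: 0.12 for controls, 0.131 for PS and 0.413 for AS mice. In PS the call was also lost without PS_sal_68 (adjusted p = 0.524) or PS_dex_34 (0.123), and in AS without AS_dex_42 (0.398).

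**Figure D2:**
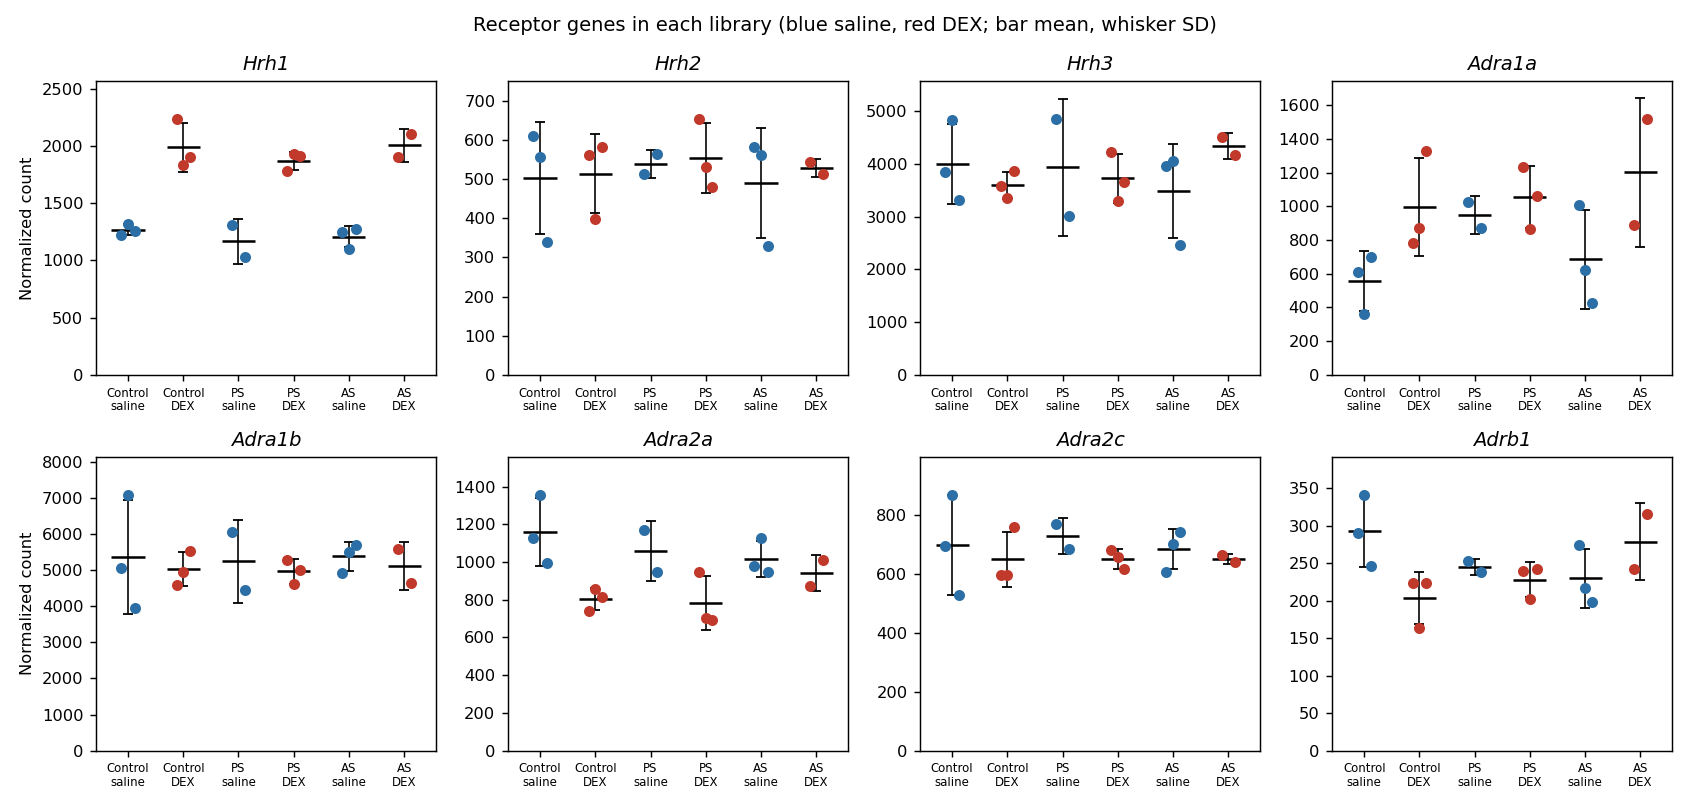
Normalized counts of the 8 receptor genes in each library, by group, with saline in blue, DEX in red, the bar at the mean and whiskers of 1 SD, on axes that start at 0. Hrh1 is the panel in which all DEX points (1779 to 2232) lie above all saline points (1027 to 1319.6).

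Beside the rise of Hrh1, some markers of oligodendrocytes and microglia were called lower after DEX. The summed level of 9 oligodendrocyte markers ranged over 81734 to 133139 in saline and 76729 to 115638 in DEX libraries, and 4 of the 9 were called lower in the averaged effect (Opalin, Ugt8a, Cnp and Mog). The 8 microglia markers summed to 8162 to 13034 in saline and to 7658 to 9074 in DEX libraries, and 3 of them were called lower (Cx3cr1, P2ry12 and Aif1). The microglia score, in which each gene weighs the same, lay at 0.03 to 0.58 in saline and at -0.30 to -0.02 in DEX libraries, with no overlap. Of the other lists, 1 of 7 endothelial markers (Tek) and 1 of 7 mural cell markers (Vtn) were called lower, and 1 of 4 markers of oligodendrocyte precursors (Pdgfra) and 1 of 10 astrocyte markers (Fgfr3) higher. Over all genes 1.53% were called lower and 2.78% higher in this effect, and a single call in so short a list does not describe its cell type. The part of these markers in the result was not tested beyond fits with 1 marker score as a covariate. With the oligodendrocyte score Hrh1 kept its call in controls and in the average (0.65, adjusted p = 0.0116). The call was lost in PS (0.65, adjusted p = 0.209) and AS (0.68, adjusted p = 0.21). That score itself lay at -0.12 to 0.51 in saline and at -0.67 to 0.04 in DEX libraries. A call lost in this fit, for Hrh1 or a gene below, therefore does not tell this cell type and DEX apart. With the score of astrocytes, serotonin neurons or ependymal cilia Hrh1 kept its call in each phenotype and in the average. No other marker score was used. None of the 8 markers of serotonin neurons was called. In tissue RNA, fewer cells of a type and less RNA per cell cannot be told apart.

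Hrh2, the Gs-coupled H2 receptor (chr13:54192129-54236180), and Hrh3, the H3 receptor (chr2:180099465-180104488), did not pass the test in any DEX comparison. Hrh2 lay at a median of 559.96 normalized counts in saline (329 to 609) and of 538 in DEX libraries (398 to 653). Its averaged DEX difference was 0.08 (95% interval -0.26 to 0.42). Hrh3 lay at a median of 3897 in saline (2461 to 4843) and of 3761 in DEX libraries (3299 to 4506), with an averaged difference of 0.06 (-0.22 to 0.33). The groups overlapped for both genes in controls and PS.

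In AS mice the Hrh3 values were 3954, 4060.1 and 2461 after saline and 4506 and 4164 after DEX. The groups did not overlap there, but the difference of 0.35 did not pass (SE 0.23, adjusted p = 0.581). Both genes share exonic bases with a gene on the opposite strand, 145 bases with Gm16578 for Hrh2 and 349 bases with Gm17180 for Hrh3, and the strand setting of the counting is not given, so their levels are uncertain.

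The balance between the histamine receptors within libraries is given as a description, with no p-value, since it restates the values of the single genes. The log2 ratio of Hrh1 to Hrh3 lay between -1.89 and -0.95 in saline and between -1.25 and -0.68 in DEX libraries, and overlapped only through AS_sal_40. Averaged over phenotypes the DEX minus saline difference of this ratio was 0.63 (0.78 for controls, 0.73 for PS and 0.38 for AS mice). The ratio of Hrh1 to Hrh2 ranged over 0.86 to 1.95 in saline and 1.44 to 2.202 in DEX libraries, with an averaged difference of 0.61.

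Adra2a, the alpha2A receptor, was the only receptor called lower. In controls it lay at 1127, 1355 and 995 normalized counts after saline and at 740.1, 856 and 816 after DEX. In PS mice the values were 1171 and 948 after saline and 949.6, 705 and 694 after DEX. In AS mice they were 978, 1126 and 946 after saline and 873 and 1010.0 after DEX. Controls were separated, PS groups overlapped by PS_dex_6 (949.6) above PS_sal_68 (948), and AS groups overlapped.

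The Adra2a means (± SD) after saline and DEX were 1159 ± 182 and 804 ± 58.9 in controls (n = 3 and 3), 1060 ± 158 and 783 ± 144 in PS (n = 2 and 3), and 1017 ± 96.0 and 941 ± 97.0 in AS (n = 3 and 2). Within a phenotype no difference passed in the main analysis: -0.52 for controls (SE 0.15, adjusted p = 0.187), -0.44 for PS (SE 0.17, adjusted p = 0.784) and -0.11 for AS mice (SE 0.17, adjusted p = 0.795). The control difference passed in 2 of 29 alternatives: DESeq2 on the recovered reads (adjusted p = 0.0613) and the serotonin neuron score as a covariate (0.0943). The PS difference passed in 1 of 29, with weights for libraries (0.0479). Averaged over phenotypes Adra2a fell by 0.36 (SE 0.10, adjusted p = 0.0634). The call was lost in 9 of 16 fits that left out 1 library, each of which is named with its value in the closing section, and with the score of serotonin neurons (-0.32, adjusted p = 0.133) or oligodendrocytes (-0.44, adjusted p = 0.394) as a covariate.

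Adra2c, the alpha2C receptor (chr5:35278319-35281763), lay at a median of 699 in saline (530.2 to 869) and of 648 in DEX libraries (596 to 759). Its averaged difference was -0.10 (95% interval -0.32 to 0.12). In PS the 2 saline values (771 and 686) lay above the 3 DEX values (683, 657 and 616), with a difference of -0.16 that did not pass (SE 0.18, adjusted p = 1.0). The log2 ratio of Adra2a to Adra2c, again a description, had an averaged DEX minus saline difference of -0.26. It went from between 0.35 and 0.91 in saline to between 0.10 and 0.66 in DEX libraries, and the change was -0.44 in control, -0.29 in PS and -0.05 in AS mice.

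Adra1a, an alpha1 receptor (chr14:66635251-66771168), was the most variable of the genes, with a range of 360.4 to 1516 normalized counts or 4.21-fold. In controls it lay at 609, 360.4 and 701 after saline and at 783, 875 and 1329.8 after DEX. In PS mice the values were 1028 and 870.4 after saline and 1235, 867 and 1061 after DEX. In AS mice they were 1006, 624 and 429 after saline and 891 and 1516 after DEX. Controls were separated, and the PS and AS groups overlapped.

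The differences of Adra1a were 0.85 in controls (SE 0.32, adjusted p = 0.319), 0.14 in PS (SE 0.36, adjusted p = 1.0) and 0.85 in AS (SE 0.36, adjusted p = 0.513). The averaged difference of 0.61 (SE 0.20, adjusted p = 0.158) did not pass. It passed with DESeq2 on the recovered reads (0.0504), with weights for libraries (0.09), with the astrocyte score as a covariate (0.0585) and without AS_sal_8 (0.0551). Adra1b, the most abundant receptor (chr11:43774606-43901210, minus strand), lay at a median of 5293 in saline (3952 to 7086) and of 4984 in DEX libraries (4594 to 5598), with an averaged difference of -0.07 (95% interval -0.30 to 0.17). Its highest value was in con_sal_104 and its lowest in con_sal_114, both of the control saline group.

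Adrb1, the beta1 receptor (chr19:56722199-56733113), lay at 290.3, 341 and 246 in control saline and at 223, 163 and 224 in control DEX libraries. These groups did not overlap, with a difference of -0.52 that did not pass (SE 0.19, adjusted p = 0.314). In PS the values were 253 and 238 after saline and 240.1, 202 and 243 after DEX. In AS they were 274, 217 and 199 after saline and 242 and 316 after DEX. The difference was 0.28 in AS (SE 0.22, adjusted p = 0.615), so its sign was opposite to that in controls. The interaction between DEX and AS was 0.80 (SE 0.29, unadjusted p = 0.0158) and did not pass over all genes (adjusted p = 0.941).

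Counted without a test, DEX and saline groups did not overlap for 4 of the 8 receptors in controls (Hrh1 and Adra1a higher, Adra2a and Adrb1 lower), for 2 in PS (Hrh1 higher, Adra2c lower) and for 2 in AS (Hrh1 and Hrh3 higher). The same held for 15.9%, 21.3% and 29.8% of all genes.

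**Figure D3:**
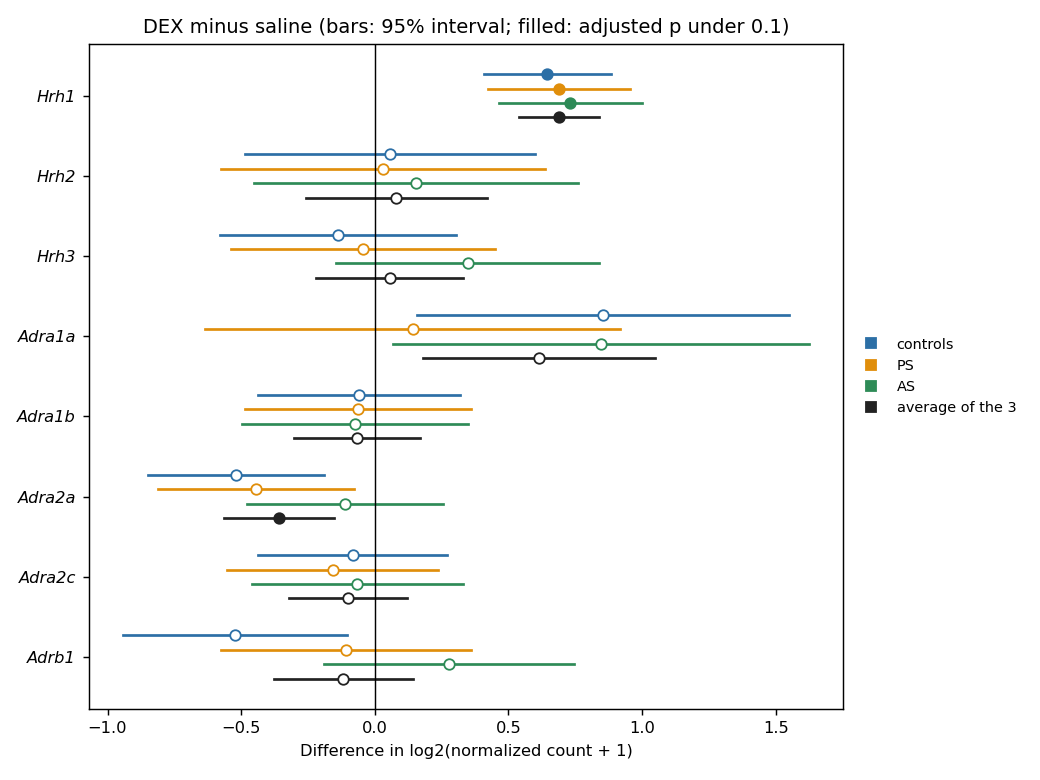
Difference between DEX and saline in log2(normalized count + 1) for the 8 receptor genes in controls, PS, AS and averaged over the 3, with 95% intervals as bars and filled points for an adjusted p under 0.1. Hrh1 is filled in all 4 comparisons and Adra2a only in the average, at -0.36.

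The next question was whether CSDS changed the receptors. None of the 8 was called in PS or AS against controls after saline, in AS against PS after saline, or in stressed against control mice averaged over coping strategy and treatment, and in these 4 comparisons 0.00% of all genes were called. The smallest adjusted p of a receptor was 0.571, for Adra1a in PS saline against control saline. At an unadjusted p under 0.05 this was also the only receptor of the 8 in these comparisons, against 7.67% of all genes in PS against controls, 2.39% in AS against controls, 3.41% in AS against PS and 4.25% in the averaged stress effect.

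Adra1a was higher in both PS saline libraries (1028 and 870.4) than in the 3 control saline libraries (360.4 to 701), a difference of 0.82 (SE 0.36, unadjusted p = 0.0404). It was the only receptor whose saline groups did not overlap in this comparison, which 28.5% of all genes showed. No receptor was separated in AS against controls after saline (4.49% of all genes) or in AS against PS after saline (23.6%). For Hrh1 the stress differences after saline were -0.13 in PS (95% interval -0.39 to 0.14) and -0.07 in AS (-0.31 to 0.17). The averaged stress difference was -0.07 for Hrh1 (-0.22 to 0.08) and -0.03 for Adra2a (-0.24 to 0.18).

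After DEX, PS and AS mice were compared with controls and with each other in the same way. No receptor was called or reached an unadjusted p under 0.05 in PS against controls (0.00% and 1.23% of all genes), in AS against controls (0.00689% and 3.50%) or in AS against PS (0.00% and 1.70%). Groups did not overlap for 3 receptors in AS against controls (Hrh3, Adra2a and Adrb1, all higher in AS), against 30.3% of all genes. They overlapped for all 8 in PS against controls (7.66% of all genes did not) and in AS against PS (19.1%). These comparisons and those of DEX against saline share the DEX libraries.

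The interactions of DEX with stress were not called for any receptor or any gene (0.00% for PS against controls, AS against controls and AS against PS). At an unadjusted p under 0.05 Adrb1 was the only receptor, in the interaction with AS, against 4.02% of all genes there and 2.10% and 2.90% in the interactions with PS and with coping strategy. The intervals were wide: for Adra2a the interaction with AS was 0.41 (95% interval -0.09 to 0.90), and for Adra1a the interaction with PS was -0.71 (-1.76 to 0.33).

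**Figure D4:**
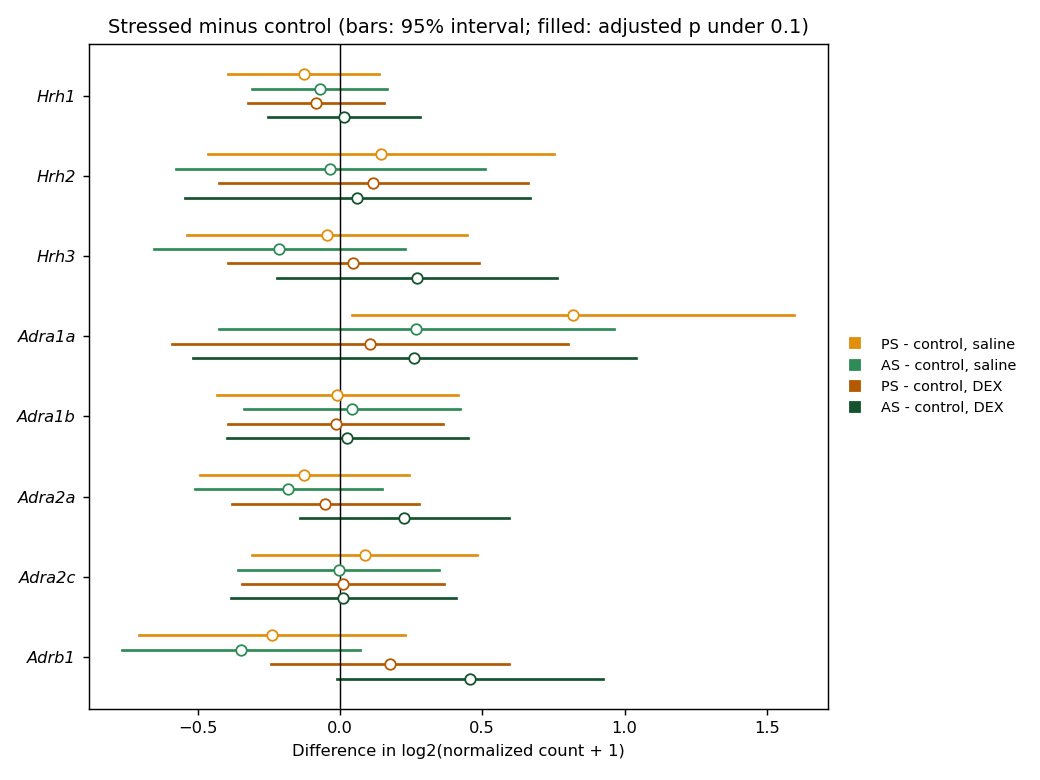
Difference between stressed and control mice in log2(normalized count + 1) for the 8 receptor genes, for PS and AS after saline and after DEX, with 95% intervals as bars. All points are open, since no adjusted p was under 0.1, and the interval of Adra1a in PS after saline (0.04 to 1.596) lies above 0.

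The signaling partners of the receptors were examined as lists. Of 14 genes of amine synthesis, storage and removal, 10 were measured and 1 was called in the averaged DEX effect: Slc22a3, an uptake transporter with low affinity for histamine and noradrenaline, fell by 0.51 on the log2 scale, from a mean of 3790.4 ± 759 (SD) in the 8 saline to 2590.04 ± 246 in the 8 DEX libraries (SE 0.12, adjusted p = 0.0310, 0.142 without AS_dex_42). The median of the 10 was 0.01, and 4.31% of all genes were called in this effect. None of the 8 measured G protein alpha subunits and none of the 4 GIRK potassium channel genes was called.

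Of 11 measured effectors of Gq, 3 rose: Itpr2, a calcium release channel, by 0.58 (SE 0.09, adjusted p = 0.00121), Prkcd, a protein kinase C, by 0.59 (SE 0.09, adjusted p = 0.00134) and Prkca, another protein kinase C, by 0.40 (SE 0.08, adjusted p = 0.0133). The median of the 11 was 0.30, against 0.00 for all genes, of which 4.31% were called. Within phenotypes the median was 0.46 for controls, 0.04 for PS and 0.48 for AS mice, with 1 of the 11 called in controls and 0 in PS and AS. Itpr2 lay at 871 to 1356 in saline and at 1750.4 to 1946 in DEX libraries with no overlap, and it was the gene called in controls (0.68, adjusted p = 0.0367). With the oligodendrocyte score as a covariate the calls of Prkcd (0.36, adjusted p = 0.317) and Prkca (0.39, adjusted p = 0.4) were lost.

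Of 18 measured effectors of cAMP, 1 was called in the averaged DEX effect, near the share of 4.31% over all genes. Adcy8, a calcium-stimulated adenylyl cyclase, fell by 0.51 (SE 0.13, adjusted p = 0.0512), with a mean of 1520.4 ± 355 (SD) in the 8 saline and 1069 ± 163 in the 8 DEX libraries. This call was lost in 6 of 16 fits that left out 1 library, with adjusted p-values up to 0.215 (without PS_sal_68), and with the oligodendrocyte score as a covariate (-0.38, adjusted p = 0.815). Of 15 measured receptor kinases, arrestins and RGS proteins, 1 was called, again near the share of 4.31%. Rgs9, which speeds the shut-off of Gi/o signals, rose by 0.37 (SE 0.10, adjusted p = 0.0885), and the call held in 4 of 16 fits without 1 library. It was lost with the score of oligodendrocytes (0.20, adjusted p = 0.896) or serotonin neurons (0.31, adjusted p = 0.181) as a covariate. Neither of the 2 other adrenergic receptor genes on the list matched a row.

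To see which receptors varied together, group means were subtracted and levels correlated over the 16 libraries. Adra1b and Adra2c varied most closely, with Pearson r = 0.89 and Spearman rho = 0.85 (exact permutation within groups, p = 0.00231 and 0.00135, adjusted over 28 pairs 0.0648 and 0.0378). Without con_sal_104 and con_sal_114, the libraries farthest from the median of Adra1b, r was 0.71. The other 27 pairs had adjusted p-values of 0.224 or more for Pearson r.

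Against markers of cell types, Adra1b followed the score of serotonin neurons with r = 0.76 and rho = 0.79 (exact permutation p = 0.0183 and 0.0177, adjusted over 120 relations 0.461 and 0.345), and r was 0.67 without con_sal_104 and AS_sal_40. Adra2c had r = 0.68 and rho = 0.67 with the same score (exact p = 0.0706 and 0.0453, adjusted 0.526 and 0.356), and r = 0.49 without those libraries. Adrb1 went against the astrocyte score with r = -0.71 and rho = -0.72 (exact p = 0.0133 and 0.0122, adjusted 0.461 and 0.345), and r was -0.74 without PS_dex_6 and AS_sal_8. With microglia Adrb1 had r = -0.76 and rho = -0.77 (exact p = 0.00424 and 0.0139, adjusted 0.461 and 0.345). Hrh2 had r = 0.68 and rho = 0.70 with glutamate neurons (exact p = 0.00926 and 0.00887, adjusted 0.461 and 0.345). For Hrh2 r was also 0.66 with oligodendrocyte precursors, 0.58 with GABA neurons, -0.58 with astrocytes, -0.65 with microglia and -0.64 with choroid plexus. No relation of the 120 passed the adjustment, and the points of each share a library with its dissection and depth. For Hrh1 the largest values were with Th, the only matched gene of the noradrenergic list (r = 0.74, rho = 0.61, exact p = 0.118 and 0.135), with the dopamine neuron score (r = 0.57, rho = 0.44, exact p = 0.225 and 0.321) and with the endothelium score (r = -0.52, rho = -0.49, exact p = 0.0995 and 0.173). Without PS_sal_62 and PS_sal_68 the first of these was 0.51 and the second 0.299, and without con_sal_102 and con_sal_104 the value with endothelium was -0.57. With oligodendrocyte precursors Hrh1 had r = -0.44 and rho = -0.50 (exact p = 0.0316 and 0.0469, adjusted 0.461 and 0.356), and r = -0.33 without con_sal_102 and AS_sal_14. Its r was 0.15 with serotonin neurons, -0.19 with oligodendrocytes and -0.07 with microglia.

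**Figure D5:**
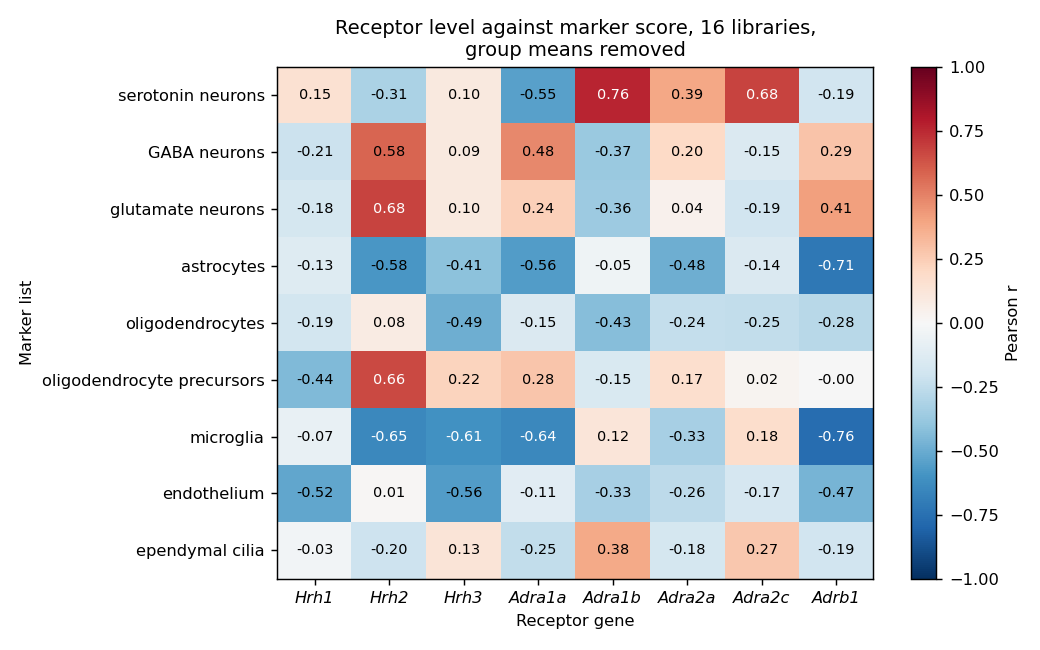
Pearson r between each receptor gene (columns) and the score of selected marker lists (rows) over 16 libraries after subtraction of the group means, from -1 (blue) to 1 (red). The noradrenergic, dopamine, histaminergic, mural cell and choroid plexus lists are not drawn. Adra1b and Adra2c are highest in the row of serotonin neurons (0.76 and 0.68) and Adrb1 is lowest in the rows of astrocytes and microglia (-0.71 and -0.76), and no value passed adjustment.

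The genes most alike in pattern were read from the same values among 12863 genes with a mean of at least 100 normalized counts, as a description over 16 libraries. For Adra1b they were Nbl1 (r = 0.95) and Fev (r = 0.95), the latter the transcription factor of serotonin neurons. For Hrh3 they were Ptprn and Ajap1 (both r = 0.96), for Hrh2 Gabbr2 and Mboat7 (both r = 0.98) and for Adra1a Atp8a1 and Atg2b (both r = 0.96). Hrh1 was most like Prpf31 (r = 0.91) and Ankrd39 (r = 0.89). Adra2a was most like Crmp1 (r = 0.91) and Dclk3 (r = 0.87), Adra2c like Coq4 (r = 0.94) and Ppp1r37 (r = 0.92), and Adrb1 like Ncmap (r = 0.91) and Jmjd4 (r = 0.90).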

How the data were processed

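PolyA RNA was sequenced with a strand-specific kit. Per the submitters' processing notes and the methods, the authors used fastp v0.20.1 for trimming, HISAT2 v2.2.1 for alignment to mm10 (GRCm38), featureCounts (Subread 2.0) for counting and DESeq2 v1.36.0. Whether counting used the strand is not given in the sources used here. The signal the authors deposited is the normalized count, a gene's count divided by 1 size factor per library. Their 3 tables of comparisons (log2 fold changes, p-values, adjusted p-values) were not used. Multiplied by the size factor, 100% of values were whole reads (within 0.05 reads), and 973 listed genes had fewer than 10 reads in a library. The 14 pairs of libraries of 1 group correlated at 0.958 to 0.987 and none was a copy of another (chi-square of counts at least 22.7 times its degrees of freedom).

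Libraries were grouped by their labels. Members, lists, motifs and named genes (every member, up to 3 called genes per list, the 2 most alike genes) were chosen with earlier results of these data known. The main test was limma v3.58.1 (R 4.3.3) on log2(normalized count + 1), a scale that understates changes of low genes, with a mean per group over all 16 libraries, eBayes with a trend (10 residual and 3.88 prior degrees of freedom) and Benjamini-Hochberg adjustment over 14504 genes. P-values measure the spread between animals. Correlations were tested by exact permutation within groups. The 3 ratios of receptors were also put to a permutation test. Its p-values are left out because the ratios restate the single genes, but its values are among those counted in the closing section. A marker score is the mean over a list of each gene's log2 deviation from its own mean. Coordinates and lengths are from GENCODE vM21 (GRCm38), promoters from RefSeq (GRCm38.p6). Alternatives were pseudocounts of 0.1 and 10, a mean of at least 100, TMM, quantile normalization, only the groups compared, library weights, 4 marker scores as covariates, the longest transcript or no division by length for the order, each library left out, and edgeR v4.0.16 and DESeq2 v1.42.0 on the recovered reads. The fit of the averaged DEX effect, the ratio test and the correlation test were run on simulated data. For that fit the genes were simulated as independent with 1 fixed spread, a simpler setting than these libraries. Calls within a phenotype were not simulated.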

Additional observations from a re-analysis of the deposited data

How the results depend on the processing

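Each result was recomputed under up to 31 settings, which gave 4045 values for 142 results. Of these values 3915 were classed as unchanged, and none turned sign while called. Unchanged meant the same side of the threshold for a tested value, or a count near the main count. An uncalled receptor value that changed sign within 1 SE of its main value was also classed as unchanged. Among 3232 values of single receptors, 247 changed sign while not called. After DEX, 1 receptor was called within each phenotype and 2 in the average. In fits on only the groups compared none was called in controls, PS or AS (0 each). With the oligodendrocyte score as a covariate PS and AS had 0 each and the average 1, and with the serotonin neuron score 2 in controls (Hrh1 and Adra2a) and 1 in the average. DESeq2 on the recovered reads gave 2 in controls (Hrh1 and Adra2a), and weights for libraries gave 2 in PS (Hrh1 and Adra2a) and 2 in AS (Hrh1 and Adra1a). Leaving out 1 library gave 0 to 1 for PS, 0 to 1 for AS and 1 to 3 for the average, with 3 (Adra1a added) without AS_sal_8. With the longest transcript 5 of 8 receptors kept their rank. The cause of these shifts was not tested.

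The averaged call of Adra2a was lost without con_sal_104 (adjusted p = 0.109), con_dex_101 (0.135), con_dex_122 (0.12), PS_sal_62 (0.228), PS_dex_34 (0.13), PS_dex_64 (0.13), AS_sal_14 (0.127), AS_dex_38 (0.192) or AS_dex_42 (0.114). Over the settings, genes called after DEX ranged from 62 to 573 in controls (1.26% of 14504 in the main analysis), from 30 to 529 in PS (0.703%), from 6 to 1402 in AS (0.689%) and from 152 to 1328 in the average (4.31%). No paired analysis was possible because the replicate numbers of the labels differ between the groups compared. The groups of 2 libraries (PS saline and AS DEX) limit the precision of every comparison that uses them.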
